A study of Mus musculus with 2 samples.

Results

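The collagen genes were all genes whose symbol is Col, a number, the letter a and a number, taken by symbol alone and not by any level: 44 of the 32285 genes in the count tables. They were followed through the cells of the mouse dorsal meninges, the membranes between skull and brain. One library came from mice 1 week after a mild closed-skull traumatic brain injury (TBI) and the other from mice 1 week after a Sham procedure, and each was a single pool of the meninges of 5 male C57BL/6 (C57BL/6J in the methods) mice of 10 weeks (10 to 12 weeks in another label), and the labels name no other allele or agent. The tissue was digested with an enzyme mix that contains collagenase VIII, and live single cells without DAPI stain were sorted and run on droplet 3′ sequencing. The collection left out the site of the impact itself. With 1 library per group there was no spread between replicates and no test; intervals are 95% exact Poisson or binomial intervals, which cover counting error only.

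Collagens are the main structural proteins of connective tissue, built from alpha chains that wind into triple helices inside the cell and are assembled outside it. Fibrillar collagens (types I, III, V, XI) form the tensile fibrils of the dura, the fibril-associated collagens (FACITs) decorate them, type IV collagen forms the sheet of basement membranes under endothelium and around Schwann cells and mural cells, type VI makes beaded microfibrils, and smaller families span the cell membrane or sit between basement membrane and matrix. Levels below are unique molecular identifiers (UMIs) per 1000000 UMIs of the class (CPM). A UMI stands for 1 captured transcript 3′ end, and since capture can differ between genes, each gene is compared mainly with itself across classes.

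After filtering, 2043 Sham and 3773 TBI cells remained, with 7866611 and 13940740 UMIs and medians of 2764 and 2663 UMIs per cell. The libraries shared 20 barcode sequences among their barcodes. Cells were clustered and named from markers without any collagen gene, so that collagen levels did not shape the classes, and 27 clusters gave 19 named classes and 1 unnamed cluster. The fibroblast-like class held 120 Sham and 758 TBI cells in 2 clusters, which carried 13 and 9 of its 14 markers. The first was led by Ptgds, Fmod and Mfap4 and the second by Snhg11 and Bnc2, with no marker of the class among its 10 leading genes. Of the 44 genes, 22 had at least 200 UMIs over the filtered cells, 10 had 20 to under 200, 8 had 1 to 19, and 4 had none: Col2a1 and Col10a1, the collagens of cartilage, Col19a1 and Col6a4. A count of 0 in a library still allows up to 0.381 CPM in all Sham cells and 0.215 CPM in all TBI cells.

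Collagen UMIs were concentrated in stromal, vascular and glial cells. In fibroblast-like cells they made up 1.53% of all UMIs in the Sham library (1.49 to 1.57%) and 1.64% in the TBI library (1.62 to 1.66%). Pericyte-like cells, the mural cells of small vessels, followed with 0.703% and 0.95%, then Schwann-like cells, the glia of meningeal nerves, with 0.465% and 0.458%, and endothelial-like cells with 0.222% and 0.224%. In choroid plexus-like cells the share was 0.06% and 0.0628%, and in B-like cells 0.0019% and 0.0158%. Of all collagen UMIs, 67.9% lay in fibroblast-like cells in the Sham library and 83.8% in the TBI library, while endothelial-like cells held 16.8% and 6.75%.

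**Figure D1:**
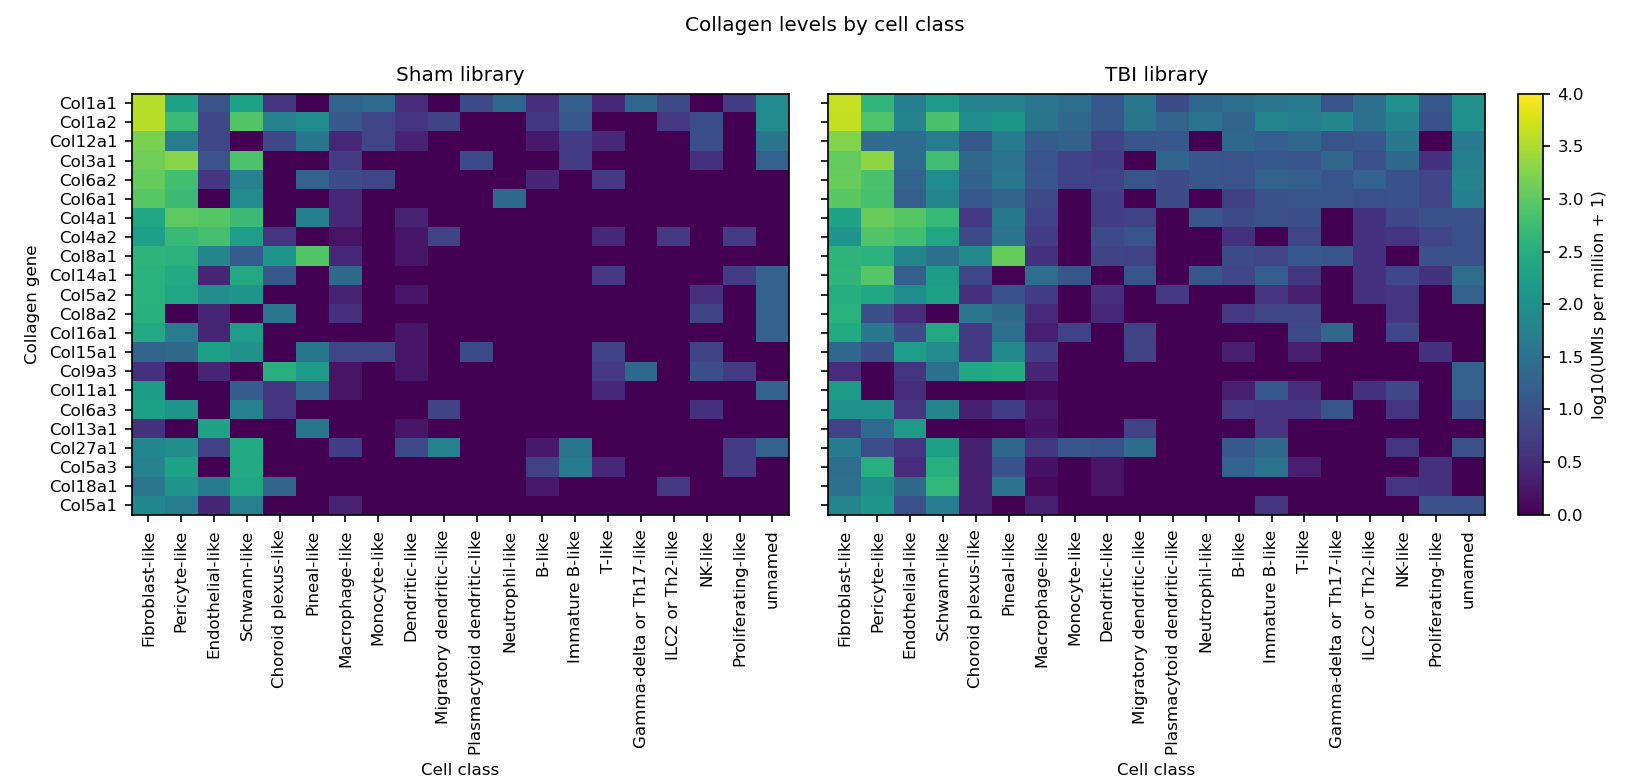
Level of the 22 collagen genes with at least 200 UMIs (rows) in each cell class (columns), as log10 of CPM plus 1, in the Sham and the TBI library. Col1a1, Col1a2 and Col12a1 are brightest in fibroblast-like cells, Col4a1 and Col4a2 in pericyte- and endothelial-like cells, and Col1a1 in B-, T- and NK-like cells is darker in the Sham than in the TBI library.

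Among the fibrillar collagens, Col1a1 and Col1a2, the chains of type I collagen, were the most abundant members. Col1a1 reached 3544 CPM in Sham and 4476 CPM in TBI fibroblast-like cells, against 210 and 423 CPM in pericyte-like and 207 and 149 CPM in Schwann-like cells. Col1a2 reached 3861 and 4283 CPM in fibroblast-like cells, 536 and 797 CPM in pericyte-like cells and 827 and 700 CPM in Schwann-like cells. Fibroblast-like cells held 93.8% and 95.3% of the Col1a1 UMIs of the library, and 90.3% and 93.7% of those of Col1a2. In Schwann-like and pericyte-like cells Col1a2 stood above Col1a1, where the chains were near each other in fibroblast-like cells. In pericyte-like cells Col1a1 in both libraries and Col1a2 in the TBI library were not above the background of free fibroblast RNA described below.

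The ratio of the chains gave the same picture. In fibroblast-like cells Col1a1 gave 47.9% of the UMIs of the pair in the Sham library (45.9 to 49.8%) and 51.1% in the TBI library (50.4 to 51.8%). In Schwann-like cells it gave 20.0% (15 Col1a1 and 60 Col1a2 UMIs, 11.6 to 30.8%) and 17.6% (16 and 75 UMIs, 10.4 to 27.0%), and in pericyte-like cells 28.1% (13.7 to 46.7%) and 34.7% (27.1 to 42.9%), and of these intervals all but that of the Sham pericyte-like cells lie below the interval of fibroblast-like cells in the same library. Lymphocyte-like cells (B-, immature B-, T-, NK- and ILC2 or Th2-like together), which should make no type I collagen, gave 47.6% (25.7 to 70.2%) and 51.3% (44.6 to 57.9%), intervals that include the fibroblast-like value.

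Col3a1, which forms fine reticular fibrils, was highest in pericyte-like cells, at 1863 CPM in the Sham library (1477 to 2318) and 2074 CPM in the TBI library (1827 to 2344), against 1340 and 1074 CPM in fibroblast-like cells and 731 and 588 CPM in Schwann-like cells. Set beside Col1a2, Col3a1 gave 77.7% and 72.2% of the pair's UMIs in pericyte-like cells, 46.9% and 45.7% in Schwann-like cells, and 25.8% and 20.0% in fibroblast-like cells. The lymphocyte-like classes of the TBI library gave 21.7% (15.2 to 29.3%), an interval that again includes the fibroblast-like value. Col12a1 separated the classes in the other direction: it gave 29.2% and 29.1% of the UMIs of Col12a1 and Col1a2 in fibroblast-like cells but 8.0% and 2.97% in pericyte-like cells, and 0% (0 Col12a1 beside 60 Col1a2 UMIs) and 6.25% (5 beside 75) in Schwann-like cells. The Schwann-like cell with the most Col3a1 held 25 of the 53 Sham UMIs, and 7 of the 63 in the TBI library. That with the most Col1a2 held 17 of the 60 and 13 of the 75.

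**Figure D2:**
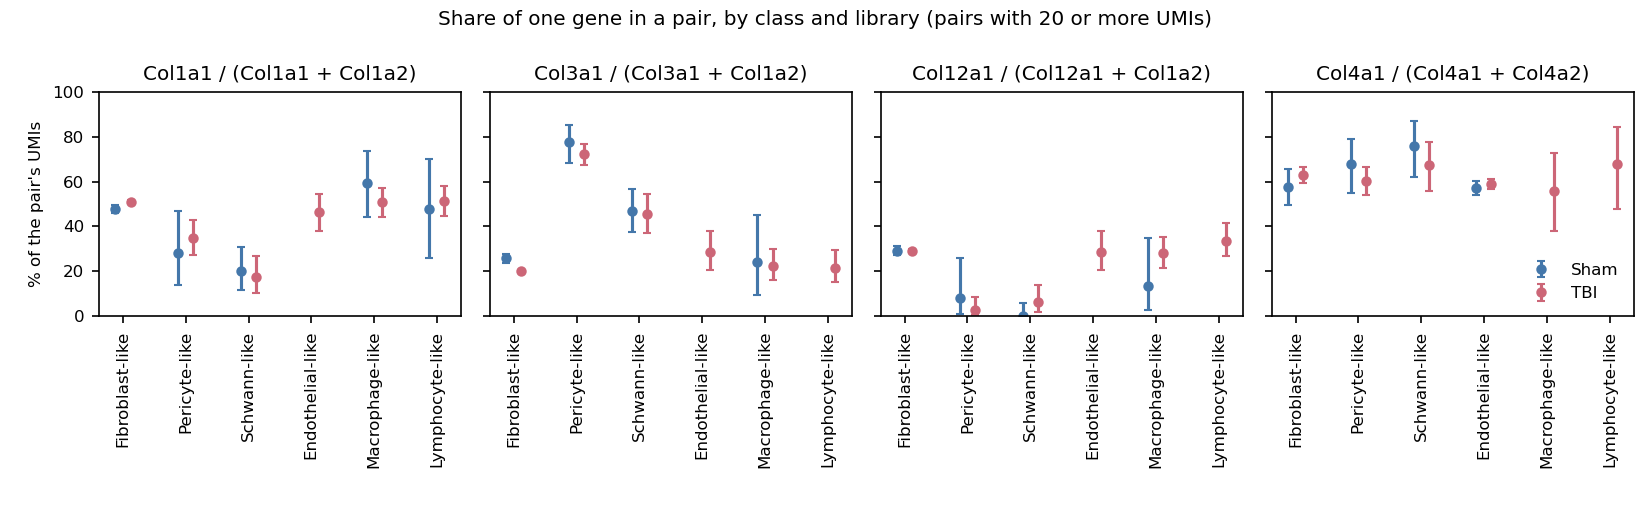
Share of the first gene in the UMIs of a gene pair (0 to 100%) by class, for the Sham (blue) and TBI (red) libraries, with 95% binomial intervals that cover counting error only; pairs with under 20 UMIs are left out. Pericyte- and Schwann-like cells stand away from fibroblast-like cells in the first 3 panels, while most intervals of macrophage- and lymphocyte-like cells include the fibroblast-like values.

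The smaller fibrillar chains were divided among the same 3 classes. Col5a2, a chain of type V collagen that starts and limits fibril growth, reached 362 and 313 CPM in fibroblast-like, 233 and 252 CPM in pericyte-like and 124 and 177 CPM in Schwann-like cells, and was also present in endothelial-like cells at 90.9 and 87.2 CPM. Col5a3, another chain of type V, was highest in Schwann-like cells in the Sham library (276 CPM, with 317 in the TBI library) and in pericyte-like cells in the TBI library (333 CPM, with 210 in the Sham library), against 58.0 and 25.9 CPM in fibroblast-like cells. Col5a1 had 71.8 and 65.6 CPM in fibroblast-like and 46.6 and 130 CPM in pericyte-like cells. Col11a1, the type XI chain, was found mainly in fibroblast-like cells (155 and 148 CPM), which held 90.3% and 95.4% of its UMIs. Col27a1 was highest in Schwann-like cells at 276 and 187 CPM, from 20 UMIs in each library, against 71.8 and 42.8 CPM in fibroblast-like cells.

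The type IV chains Col4a1 and Col4a2 were highest in pericyte-like and endothelial-like cells, though not in every endothelial-like cluster. Col4a1 reached 1025 and 1220 CPM in pericyte-like, 891 and 866 CPM in endothelial-like, 524 and 486 CPM in Schwann-like and 246 and 198 CPM in fibroblast-like cells. Col4a2, the chain it is wound with, reached 489 and 805 CPM, 664 and 607 CPM, 166 and 233 CPM, and 180 and 115 CPM in the same order. Because endothelial-like cells were many, they held 65.6% of the Col4a1 UMIs and 69.1% of the Col4a2 UMIs of both libraries together. Within endothelial-like cells the cluster led by Gpihbp1, Igfbp3 and Kdr, genes of capillaries, had 1229 and 1406 CPM of Col4a1, the Sema3g-led cluster, which carries arterial genes, 707 and 615 CPM, and the cluster led by Vwf, which is typical of veins, 191 and 209 CPM. The cluster led by Slc38a5, Slco1a4 and Cldn5 (13 Sham and 39 TBI cells) had only 11 and 65 UMIs of all collagens together, 0.0361% and 0.0586% of its UMIs.

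The genes of both chains lie head to head on chromosome 8 (GRCm38, GENCODE positions): Col4a1 from 11198423 to 11312826 on the minus strand and Col4a2 from 11312805 to 11449287 on the plus strand, so that their annotated ends share 22 bases. Col4a1 gave 57.3% and 58.8% of the pair's UMIs in endothelial-like cells, 57.8% and 63.1% in fibroblast-like, 67.7% and 60.2% in pericyte-like and 76.0% and 67.5% in Schwann-like cells, while Col4a1 itself ranged from 198 to 1220 CPM over these classes. Their RefSeq promoters (GRCm38.p6, 250 bases before to 50 after the start) share 78 bases, chr8:11312777-11312854. They are printed here because the data bear on both as a pair, with those of Col1a2 and Col3a1, a fibrillar pair whose ratio differed between classes, each 5′ to 3′ on the strand of its gene. Capitals mark the motif CCAAT, the motif GGGCGG and the motif TATAAA on either strand, and no marked motifs overlap.
Col4a1, chr8:11312777-11313076, minus strand: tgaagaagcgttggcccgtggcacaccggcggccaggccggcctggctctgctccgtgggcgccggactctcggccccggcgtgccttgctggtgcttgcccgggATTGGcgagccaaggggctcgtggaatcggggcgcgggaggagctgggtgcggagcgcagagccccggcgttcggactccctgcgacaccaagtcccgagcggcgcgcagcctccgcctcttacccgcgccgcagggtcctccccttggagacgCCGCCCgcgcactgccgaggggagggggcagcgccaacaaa
Col4a2, chr8:11312555-11312854, plus strand: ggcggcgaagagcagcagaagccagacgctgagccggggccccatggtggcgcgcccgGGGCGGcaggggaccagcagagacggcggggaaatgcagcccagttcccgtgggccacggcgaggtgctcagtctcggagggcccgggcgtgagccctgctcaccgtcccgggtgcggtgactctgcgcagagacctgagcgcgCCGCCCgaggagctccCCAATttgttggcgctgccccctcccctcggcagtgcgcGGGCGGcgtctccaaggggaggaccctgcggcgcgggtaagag
Col1a2, chr6:4505368-4505667, plus strand: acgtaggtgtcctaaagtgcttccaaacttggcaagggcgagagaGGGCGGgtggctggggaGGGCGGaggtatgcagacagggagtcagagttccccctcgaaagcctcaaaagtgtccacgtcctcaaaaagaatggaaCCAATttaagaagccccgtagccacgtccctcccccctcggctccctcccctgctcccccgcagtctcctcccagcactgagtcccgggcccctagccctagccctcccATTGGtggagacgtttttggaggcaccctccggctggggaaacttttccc
Col3a1, chr1:45311288-45311587, plus strand: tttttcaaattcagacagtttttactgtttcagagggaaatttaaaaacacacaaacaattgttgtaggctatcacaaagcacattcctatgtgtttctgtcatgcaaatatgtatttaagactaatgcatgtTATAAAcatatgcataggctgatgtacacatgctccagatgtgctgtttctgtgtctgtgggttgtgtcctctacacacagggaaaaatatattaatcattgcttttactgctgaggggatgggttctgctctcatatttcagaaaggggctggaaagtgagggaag

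Of the 44 genes, 35 matched the promoter table, with 38 promoters. CCAAT was in 13 of the 38, against 37.4% of the 32851 promoters of that length in the table, GGGCGG in 23, against 35.7%, TATAAA in 5, against 13.6%, and CACGTG, searched as well, in 0, against 7.15%. The printed promoters of Col4a1, Col4a2 and Col1a2 hold CCAAT and GGGCGG, and that of Col3a1 holds TATAAA with neither. A match of letters is a description of the sequence and says nothing of a factor bound there.

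Col4a3, Col4a4 and Col4a5, the chains of the type IV network known from the kidney filter, were rare and highest in pericyte-like cells. Col4a4 had 2 UMIs in the 23 Sham and 25 UMIs in the 70 TBI pericyte-like cells (46.6 and 203 CPM), Col4a3 had 3 and 14 UMIs (69.9 and 114 CPM), and Col4a5 had 2 and 11 UMIs (46.6 and 89.5 CPM). Col4a4 and Col4a3 also lie head to head, on chromosome 1 with 71 bases between the annotated starts. The Sham values rest on few UMIs, and the intervals of Col4a4 (5.64 to 168 and 132 to 300 CPM) overlap.

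The beaded-filament chains Col6a1 and Col6a2, which assemble with Col6a3 or a like chain into type VI microfibrils, were shared by fibroblast-like and pericyte-like cells. Col6a1 had 909 and 935 CPM in fibroblast-like and 559 and 683 CPM in pericyte-like cells, and Col6a2 had 1116 and 1167 CPM and 605 and 707 CPM. Col6a3, the longest of them, had 185 and 109 CPM in fibroblast-like and 116 and 114 CPM in pericyte-like cells. Col6a5 was found mainly in fibroblast-like cells (58.0 and 53.5 CPM), which held 87.5% and 95.2% of its UMIs, and Col6a6 had 11 UMIs in all, 90.9% of them in endothelial-like cells.

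The FACITs went to different classes. Col12a1 was highest in fibroblast-like cells (1591 and 1754 CPM) and Col16a1 in fibroblast-like (262 and 281 CPM) and Schwann-like cells (166 and 271 CPM). Col14a1 had 354 and 406 CPM in fibroblast-like, 279 and 870 CPM in pericyte-like and 262 and 159 CPM in Schwann-like cells. The pericyte-like value came from few cells, 3 of 23 and 12 of 70, and the 3 highest cells held all 12 UMIs in the Sham library and 49.5% of the 107 in the TBI library. Col9a3, a chain of the cartilage FACIT type IX, had 327 CPM (269 to 395) and 253 CPM (219 to 290) in choroid plexus-like cells, the epithelium that makes cerebrospinal fluid, and 154 CPM (70.5 to 293) and 296 CPM (229 to 378) in the mixed pineal-like cluster, so that the former led in the Sham and the latter in the TBI library, with overlapping intervals there, against 2.76 and 2.23 CPM in fibroblast-like cells. Col20a1 had 10 and 5 UMIs in Schwann-like cells, 138 and 46.7 CPM.

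The network-forming short chains Col8a1 and Col8a2, known from the cornea and vessel wall, were both present in fibroblast-like cells, Col8a1 at 392 and 392 CPM and Col8a2 at 340 and 361 CPM. Col8a1 was highest in the cluster led by Chgb, Pde6g and Gng13, named pineal-like, at 822 and 1126 CPM. That cluster was mixed: at a finer resolution 44 of its 133 cells kept the name, with Tph1, the first enzyme of melatonin synthesis, at 1852 and 2603 CPM and Aanat at 0 UMIs in both libraries, 56 were named choroid plexus-like and 33 fibroblast-like. Most Col8a1 was in the 56 cells, at 1984 CPM (26 UMIs) and 2323 CPM (211 UMIs), against 728 and 518 CPM in the 44 cells and 0 UMIs in the 33. Most Col9a3 of the cluster was in the 56 cells too, at 458 CPM (6 UMIs) and 650 CPM (59 UMIs). The 44 cells held 3 and 2 Col9a3 UMIs and the 33 held 0 and 4. Ttr, the leading gene of the choroid plexus-like class, was at 305 CPM in the 9 Sham and 10084 CPM in the 47 TBI cells of the 56, and at 81785 and 230 CPM in the 13 Sham and 31 TBI cells of the 44, so the split differed between libraries and no cell type is given to the Col8a1-high cells. Among endothelial-like cells Col8a1 was highest in the Sema3g-led cluster, at 344 and 410 CPM, where the TBI capillary cluster had 19.2 CPM.

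Col15a1 and Col18a1, collagens that lie at the outer face of basement membranes, parted by class. Col15a1 was highest in endothelial-like cells (190 and 169 CPM), within them in the capillary cluster (271 and 287 CPM), and Col18a1 in Schwann-like cells (234 and 448 CPM). In endothelial-like cells Col18a1 had 42.2 and 22.7 CPM overall but 226 and 112 CPM in the Sema3g-led cluster. The latter came from 23 UMIs in 8 of 51 Sham cells and 18 UMIs in 15 of 92 TBI cells. A single Sham endothelial-like cell held 15 UMIs of Col18a1. Col13a1, a membrane-spanning collagen, was endothelial: 203 and 152 CPM there, 93.7% of its UMIs in both libraries together, and 293 and 252 CPM in the capillary cluster against 88.4 and 87.0 CPM in the Sema3g-led one. In fibroblast-like cells it was at 2.76 and 4.91 CPM.

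All 43 UMIs of Col28a1, a collagen known from peripheral nerve, were in Schwann-like cells. It had 19 UMIs in 13 of 35 Sham cells (262 CPM, 158 to 409) and 24 UMIs in 17 of 46 TBI cells (224 CPM, 144 to 333), and no UMI in any other class, fibroblast-like cells included. The cluster led by Gfra3, Kcna1 and Scn7a, genes of Schwann cells that do not form myelin, held 14 of the 19 and 22 of the 24 UMIs. Col26a1 and Col25a1 were highest in fibroblast-like cells (27.6 and 33.9 CPM, and 35.9 and 21.0 CPM), and Col23a1 in the pineal-like cluster. Col11a2 was at 4.61 CPM in fibroblast-like cells. The 8 genes with 1 to 19 UMIs were Col4a6, Col6a6, Col7a1, Col9a1, Col9a2, Col17a1, Col22a1 and Col24a1.

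RNA from broken cells can enter the droplets of other cells, so collagen UMIs outside the fibroblasts were set beside 14 other fibroblast genes, such as Dcn and Lum, of which 13 had at least 50 UMIs in fibroblast-like cells in each library. In B-like cells of the Sham library all collagens together were at 0.124% of their fibroblast level and the median of these genes at 0%, and in the TBI library at 0.962% and 0.814%. Barcodes with at least 50% hemoglobin UMIs, 562 Sham and 391 TBI barcodes that should hold red cells alone, gave 0.561% for collagens and 0.438% for the other genes in the Sham library, and 6.2% and 6.12% in the TBI library. Both sets were higher in the TBI library in B-like cells and red-cell barcodes, and in the latter the collagens lay near the other fibroblast genes. Among the 14, Dcn, Lum, Igfbp5, Mfap4, Serpinf1, Pcolce, Fbln1, Cdh11, Igfbp6, Pdgfra, Mmp2 and Ogn were also markers that named the fibroblast-like class. A cluster high in them would have taken that name, so their level in the other classes is low in part by construction.

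A collagen was called above this background in a class where it had at least 10 UMIs in each library and a lower limit over 2 times the count expected from the median of the 13 fibroblast genes. Schwann-like cells had 10 such collagens: Col1a2, Col3a1, Col4a1, Col4a2, Col5a3, Col14a1, Col16a1, Col18a1, Col27a1 and Col28a1. Pericyte-like cells had 8 (Col3a1, Col4a1, Col4a2, Col5a2, Col6a1, Col6a2, Col8a1 and Col14a1) and endothelial-like cells 7 (Col4a1, Col4a2, Col5a2, Col8a1, Col13a1, Col15a1 and Col18a1). Choroid plexus-like cells had 3 (Col8a1, Col8a2 and Col9a3) and the mixed pineal-like cluster 1 (Col8a1). Col28a1 had no UMI in fibroblast-like cells, so its expected count was 0. The share of all genes that pass this rule in each class was not counted, so these counts are not particular to collagens. With the highest instead of the median of the fibroblast genes, pericyte-like cells kept a count of 3 and Schwann-like cells of 5. Pericyte-like cells kept Col3a1, Col4a1 and Col4a2. Choroid plexus-like cells kept Col9a3 and lost Col8a1 and Col8a2. Col8a1 had 42 Sham and 63 TBI UMIs there, where 29.1 and 64.7 were expected from Pcolce, the highest. Col8a2 had 12 and 28 UMIs there, where 25.2 and 59.7 were expected. Schwann-like cells lost Col1a2, Col3a1, Col4a2, Col14a1 and Col16a1. Col1a2 had 60 Sham and 75 TBI UMIs there, where 149 and 337 were expected from Ogn, the highest. The Schwann-like shares of gene pairs with Col1a2 thus rest on a gene that did not pass with Ogn. In pericyte-like cells Col1a1 passed with the median in neither library and Col1a2 in the Sham library alone. The pericyte-like shares of gene pairs with Col1a2 thus rest on a gene that did not pass in both libraries. Among the fibroblast genes Ogn stood at 53.2% and 73.5% of its fibroblast level in Schwann-like cells. In pericyte-like cells Pcolce stood at 30.2% in the Sham and Ogn at 40.1% in the TBI library.

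In endothelial-like cells type I collagen did not stand above this background. Col1a1 had 6 UMIs in the Sham and 69 in the TBI library (9.74 and 52.3 CPM), and Col1a2 had 4 and 80 (6.49 and 60.7 CPM). Col4a1 in the same cells had 549 and 1142 UMIs where 0.85 and 4.75 were expected. Among immune classes 3 collagens were above the background: Col14a1 in macrophage-like cells (36 and 92 UMIs, 2.93 and 17.3 expected), Col23a1 in dendritic-like cells (12 and 13 UMIs, 0.0287 and 0.148 expected) and Col5a3 in immature B-like cells (11 and 10 UMIs, 0 and 0.161 expected). The Col14a1 counts were below the 43.5 and 97.6 expected from Serpinf1, the highest of the fibroblast genes there. Col14a1 was found in 21 of 334 and 68 of 722 macrophage-like cells, against 0 of 374 and 5 of 291 B-like cells, at median depths of 2988 and 4419 and of 3092 and 2663 UMIs. Col5a3 lay in 9 of 83 and 9 of 118 immature B-like cells, with at most 2 UMIs in a cell, and in 5 of 374 and 8 of 291 B-like cells.

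**Figure D3:**
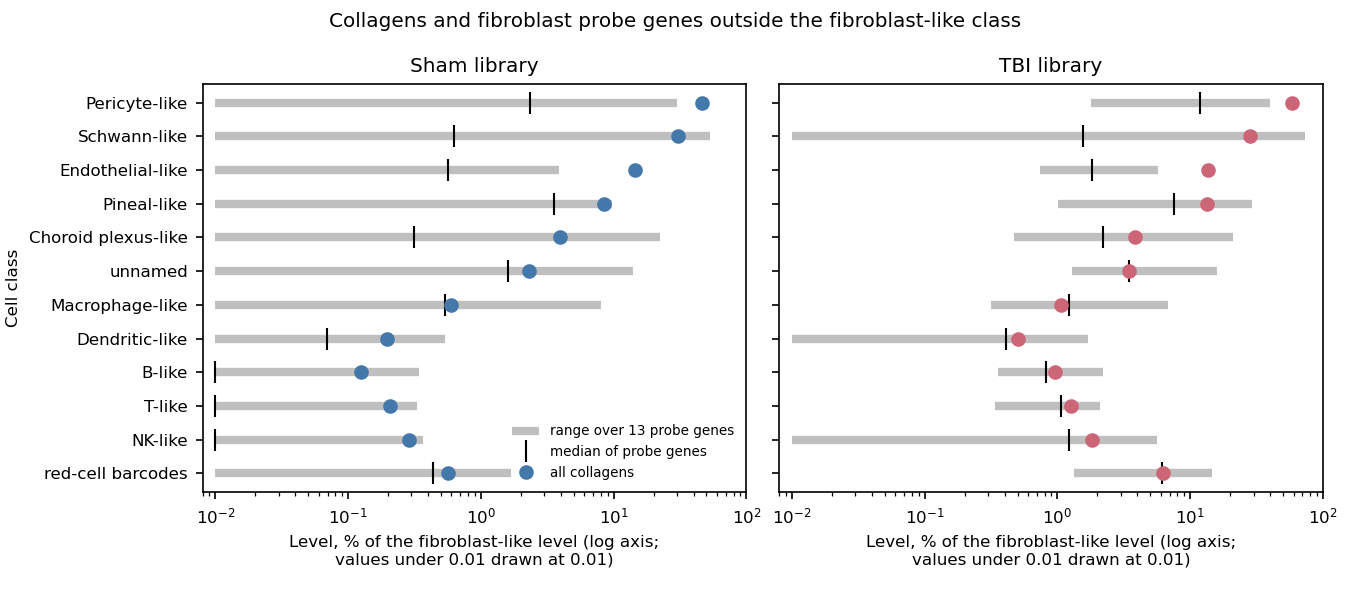
Level outside the fibroblast-like class as a percent of the fibroblast-like level (log axis) for all collagens summed (points), and the range (grey bars) and median (ticks) of 13 other fibroblast genes, in each library. In B-like cells the collagens are at 0.124% in the Sham and 0.962% in the TBI library, and pericyte-, Schwann- and endothelial-like cells are far to the right of the lymphocyte-like classes.

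Between the libraries, collagen UMIs over all filtered cells rose from 1037 CPM in the Sham to 3146 CPM in the TBI library, 3.03-fold. The share of fibroblast-like cells in all UMIs was 4.6% and 16.1%. With each class held at its Sham level and the class shares set to those of the TBI library the total was 2.76-fold higher, and with Sham shares and TBI levels 1.15-fold higher. Of 27 collagens with at least 50 UMIs over all cells, 19 were past 1.5-fold higher in the TBI library and 0 lower, where 15.3% and 3.93% of all genes were (19.2% in either direction). The 8 others were Col4a1, Col4a2, Col5a3, Col9a3, Col13a1, Col15a1, Col18a1 and Col27a1. Of these Col13a1, Col15a1 and Col9a3, at 16.4 and 15.6 CPM, 19.3 and 23.1 CPM, and 16.4 and 20.4 CPM, had few fibroblast UMIs. Others had more: Col4a1 had 89 Sham and 443 TBI UMIs in fibroblast-like cells, Col4a2 65 and 259, and Col27a1 26 and 96. The number of cells of a class in a droplet library depends also on digestion and sorting, whose part was not tested.

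Within fibroblast-like cells the summed collagens differed little between libraries, while single collagens moved in both directions. Their summed level was higher in the TBI library by 0.10 on the log2 scale (0.06 to 0.14). Of 25 collagens with at least 50 UMIs, 1 was past 1.5-fold higher (Col4a5) and 5 lower (Col5a3, Col25a1, Col6a3, Col27a1 and Col4a2), where 8.73% and 8.16% of all genes were (16.9% in either direction). Their median log2 ratio was -0.07, and that of all genes -0.03. Col1a1 was higher by 0.34 (0.25 to 0.42), Col1a2 by 0.15 (0.07 to 0.23) and Col12a1 by 0.14 (0.01 to 0.27). Col3a1 was at -0.32 (-0.46 to -0.18), Col4a2 at -0.64 (-1.03 to -0.22) and Col5a3 at -1.19 (-1.91 to -0.37). Col6a1, Col6a2 and Col8a1 were at 0.04, 0.06 and -0.01.

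Markers of pericytes were followed within these cells too. Of the 12 markers of the pericyte-like class, 6 were higher in the Sham and 5 in the TBI fibroblast-like cells, and Higd1b was at 0 in both, as were Myh11 and Kcnj8 in the Sham library. Their summed level was 807 CPM in the Sham and 446 CPM in the TBI library. Acta2, a contractile actin, was at 354 and 30.3 CPM and Pdgfrb at 326 and 299 CPM. Rgs5 was at 11.05 and 2.23 CPM, from 4 and 5 UMIs. A single Sham cell, a predicted doublet of 16558 UMIs, held 44.9% of the Sham UMIs of the 12 markers. It held 92.97% of the Sham Acta2 UMIs and 8.38% of the collagen UMIs. Without this cell Acta2 was at 26.0 CPM in the Sham library. Without this cell, an exclusion chosen after the values were seen, the summed collagens were at 0.16 (0.12 to 0.20), Col3a1 at -0.11 (-0.26 to 0.05), Col5a3 at -0.87 (-1.66 to 0.06) and Col4a2 at -0.62 (-1.02 to -0.19). Of 25 collagens, 1 was then past 1.5-fold higher and 4 lower, where 8.81% and 8.67% of all genes were, and Col6a3 was at -0.17. The part of pericyte RNA in the remaining differences was not tested.

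Several of these values rested on a small number of cells. Without the 2.5% of cells with the most UMIs of a gene in each library, an exclusion chosen after the values were seen, Col3a1 was at 0.06 and Col6a3 at -0.30 in place of -0.77, while Col1a1 was at 0.24, Col4a2 at -0.78 and Col5a3 at -1.55. The single Sham cell above held 17.5% of the Col3a1 and 37.3% of the Col6a3 UMIs of its class and library. As a mean over cells Col6a3 was at 0.30, so its direction turned. Col15a1 and Col18a1, with 7 and 13 Sham UMIs, moved from 0.09 to -1.89 and from -0.33 to 0.72.

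**Figure D4:**
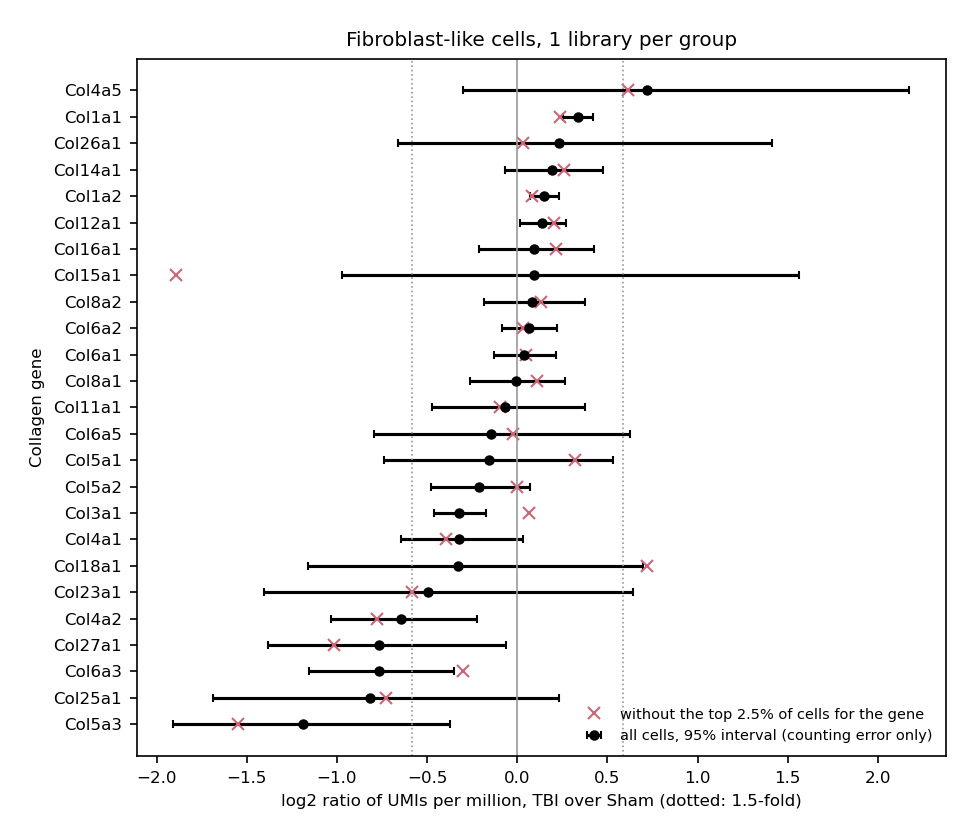
log2 ratio of CPM, TBI over Sham, in fibroblast-like cells for the 25 collagens with at least 50 UMIs: points with 95% binomial intervals (counting error only) for all cells, and crosses without the 2.5% of cells with the most UMIs of that gene. Col1a1 is at 0.34, Col3a1 moves from -0.32 to 0.06, and Col5a3 is lowest at -1.19.

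Fibroblast-like cells fell into 6 subclusters, again formed without collagens. That led by Tnc, Chad and Spp1, genes of tendon and bone matrix (161 cells), had the most collagen, 2.47% of UMIs in the Sham and 2.22% in the TBI library, with Col1a1 at 6219 and 6592 CPM, Col3a1 at 3421 and 1982 CPM and Col6a3 at 589 and 302 CPM. That led by Moxd1 and Coch (93 cells) had the least of the larger subclusters in the TBI library, 0.839%, with Col1a1 at 1765 and 1797 CPM, but was highest in Col18a1 (256 and 97.7 CPM) among subclusters of over 19 cells. Col15a1 was at 85.4 and 62.5 CPM there and at 45.3 and 60.4 CPM in the Tnc-led subcluster. The Moxd1-led subcluster held only 11 Sham cells with 35132 UMIs, and its Col18a1 values came from 9 and 25 UMIs. In the Tnc-led one Col15a1 had 4 and 27 UMIs, so the Sham values of both genes rest on few UMIs. The subcluster led by 4930447C04Rik and Gm16070 (306 cells) was highest in Col12a1 at 2600 and 2902 CPM. In the subcluster led by Ptgds and Nnat (98 cells), with Ptgds, an arachnoid marker, at 45860 and 54512 CPM, collagens were at 0.493% and 1.3% of UMIs. The last, led by Csf1r and C1qc, held 19 cells with macrophage genes, 14 of them predicted doublets.

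The TBI over Sham ratio was not the same in every subcluster, and the differences between subclusters were not tested. Col3a1 was lower in the TBI library in the Tnc-led subcluster (-0.79 on the log2 scale, -0.98 to -0.59) and higher in that led by Ctxn3 and Penk (0.58, 0.25 to 0.94), from 302 and 886 and from 79 and 684 UMIs. Col1a1 was higher by 0.68 (0.51 to 0.85) in the 4930447C04Rik-led and by 0.50 (0.34 to 0.66) in the Ctxn3-led subcluster and at 0.08 (-0.05 to 0.22) in the Tnc-led one. The Tnc-led subcluster held 19 Sham cells, among them the predicted doublet above, and without that cell Col3a1 there was at -0.61 (-0.83 to -0.39). Col6a3 there was at -0.97 (-1.44 to -0.47) with that cell and at -0.34 (-0.92 to 0.34) without it. Its Sham level without that cell was 376 CPM.

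**Figure D5:**
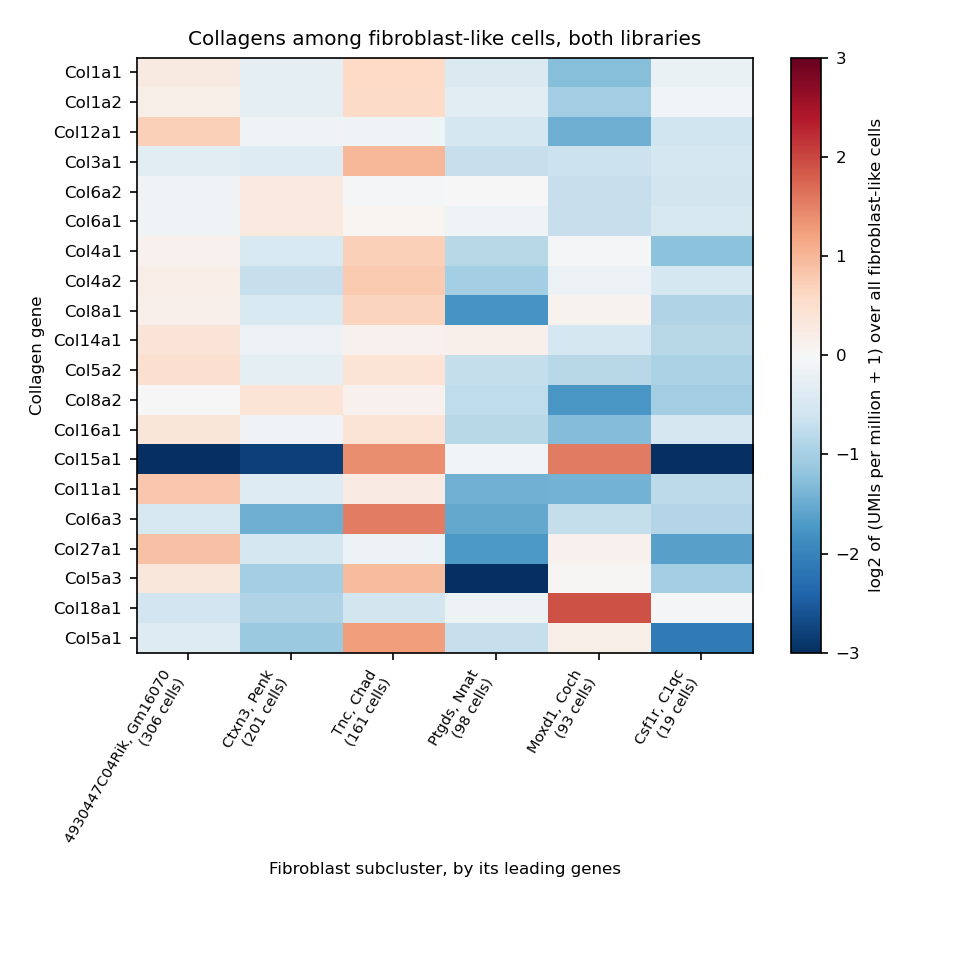
log2 of CPM plus 1 in each fibroblast subcluster over the value in all fibroblast-like cells, both libraries together, for collagens with at least 200 UMIs in all cells and 50 in fibroblast-like cells. The Tnc-led column is reddest for Col6a3, Col15a1 and Col5a1 and the Moxd1-led column for Col18a1 and Col15a1; the first 2 columns are darkest blue for Col15a1.

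In the other classes the collagens were fewer and the intervals wider. Of 9 collagens tested in endothelial-like cells, 2 were past 1.5-fold higher in the TBI library, Col1a1 and Col1a2, which were not above the background, and 1 lower, Col18a1, where 5.65% and 4.1% of all genes were (9.75% in either direction). Of the 26 Sham UMIs of Col18a1, 15 were in 1 cell. Col4a1 (-0.04, -0.19 to 0.11), Col4a2 (-0.13, -0.30 to 0.05) and Col15a1 (-0.17, -0.50 to 0.17) had intervals that include 0, and Col13a1 was at -0.42 (-0.75 to -0.09). Of 10 collagens tested in pericyte-like cells, 4 were past 1.5-fold higher and 0 lower, where 18.7% and 12.8% of genes were (31.5% in either direction): Col14a1 (1.59, 0.77 to 2.64), Col1a1 (0.95, -0.02 to 2.22), Col4a2 (0.69, 0.03 to 1.47) and Col5a3 (0.61, -0.39 to 1.90). Averaged over cells Col14a1 there was at 0.11. In pericyte-like cells Col1a1 was not called above the fibroblast background in either library. Col1a2 was above it in the Sham library alone, with 23 and 98 UMIs where 3.92 and 62.3 were expected. The free fibroblast RNA of the TBI library moves in the same direction, and its part in the Col1a1 value was not tested.

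In Schwann-like cells 1 of 5 collagens was past 1.5-fold higher, Col18a1 at 0.91 (0.11 to 1.83) from 17 and 48 UMIs, and 0 lower, where 13.8% and 6.64% of genes were (20.5% in either direction). In choroid plexus-like cells Col8a1 (-0.66, -1.24 to -0.06) was the 1 of 3 past it lower and Col1a2 (0.73, 0.00 to 1.59) the 1 higher, where 7.64% and 6.1% of genes were (13.7% in either direction), and Col9a3 was at -0.38 (-0.72 to -0.02). The 3 highest Sham cells held 64.3% of the 42 Col8a1 and 44.0% of the 109 Col9a3 UMIs. In the TBI library these shares were 39.7% and 15.1%. Col8a1 was found in 26.7% of Sham and 23.1% of TBI cells, and Col9a3 in 48.3% and 50.7%. Col1a2 was not above the background there: it had 18 Sham and 72 TBI UMIs where 4.01 and 74.7 were expected from the median of the fibroblast genes. Of those genes Dcn had 1 and 32 UMIs, and Igfbp5 went from 18.01 to 160 CPM and Mfap4 from 0 to 41.9 CPM in the same cells. Pcolce, the highest of them there, did not rise, at 22.3% of its fibroblast level in the Sham and 21.0% in the TBI library. The part of free RNA in the Col1a2 value was not tested.

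The genes that modify, fold, cleave, cross-link, bind and degrade collagen were taken from 8 lists of 80 genes in all, and 40 of the 80 were highest in fibroblast-like cells. Among the 40, Dcn, Lum, Pcolce, Fbln1 and Mmp2 were also markers used to name that class. Gp6 and Loxl4 were counted with only 1 and 2 UMIs there, all in the TBI library. The share of all genes highest in these cells was not counted. Of the 64 with at least 50 UMIs in fibroblast-like cells, 1 was past 1.5-fold higher in the TBI library (Itga11, a collagen receptor chain, 0.73) and 6 lower (Postn, Lama4, Agrn, Hspg2, Fap and Adamts3), against the 8.73% higher and 8.16% lower of all genes there, and their median log2 ratio was -0.05. Without the single Sham cell above, 4 were higher (Itga11, Ctsk, P4ha3 and Postn) and 4 lower (Lama4, Agrn, Hspg2 and Adamts3), where 8.81% and 8.67% of all genes were, and the median was 0.02. Serpinh1, the chaperone of procollagen, was at 1392 and 1431 CPM, Sparc, a collagen-binding matrix protein, at 4610 and 4978 CPM, and Pcolce, which enhances the cut of the propeptide, at 1157 and 1379 CPM. The hydroxylases P4ha1 and Plod2 were at 182 and 182 CPM and 127 and 116 CPM, the cross-linking oxidase Lox at 141 and 148 CPM and the receptor Ddr2 at 337 and 385 CPM.

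Postn, periostin, was the lowest of the lists at -2.66 (-3.21 to -2.10), from 57 and 56 UMIs in the 120 and 758 cells, but 55 of the 57 Sham UMIs were in that single cell, and without it Postn turned to 1.80 (0.19 to 5.19). It was followed by the basement membrane genes Lama4 (-0.86) and Agrn (-0.74). Bmp1, which cuts the propeptide, was at -0.54 (-0.92 to -0.13). At the other end were Itga11, the collagen-degrading protease Ctsk (0.54, 0.17 to 0.96) and the cross-linking enzyme Loxl3 (0.48, -0.26 to 1.39). Mrc2, a receptor that takes up collagen, was at 580 and 614 CPM.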

How the data were processed

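Meninges of 5 mice per group were pooled into 1 droplet library each (10x 3′ v2 chemistry). The authors deposited matrices of whole-number UMI counts per gene and barcode, not normalized and already restricted to called cells, with 2699 Sham and 4349 TBI barcodes and 9527334 and 15011079 UMIs. The aligner was Cell Ranger with build mm10; the version is 2.1.1 in the submitters' processing notes and 3.1.0 in the matrix headers. Cells with 150 to 5000 genes, at most 20% mitochondrial and 5% hemoglobin UMIs were kept, as in the study. Collagen genes were left out, 2000 variable genes and 20 components went into a Leiden clustering (leidenalg 0.10.2, resolution 0.8), and a cluster was named for the class whose markers had the highest mean log2 fold (at least 1, with 3 or more markers at 2-fold in 10% of cells), a rule chosen after the clusters were seen. Doublets were left in for the main values (33 Sham and 114 TBI cells were predicted). UMIs were summed per class and library, and log2 ratios of CPM took 0.5 UMIs added to each sum. Genes with at least 50 UMIs in a class were counted when past 1.5-fold. Members with at least 200 UMIs are given with values, those with 20 to under 200 with their leading class, and the rest are named; of the lists, 10 chosen genes and the 3 with the highest and the 3 with the lowest ratio are named. The members and gene lists were chosen with earlier results of these data known. Python 3.11.15, scanpy 1.11.5 and scipy 1.17.1 were used. The ratio step was run on simulated Poisson counts without variation between cells or animals, which checks the calculation alone and not the spread of the real data. Alternatives are given in the closing section. Positions are from GENCODE, promoters from RefSeq (GRCm38.p6).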

Additional observations from a re-analysis of the deposited data

Results flagged for a closer look

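Groups of 1 library have no outlying sample to look for. Collagens past 1.5-fold in opposite directions in 2 classes drew attention, and in each case the difference between the classes was not tested. Col4a2 had a log2 ratio of TBI over Sham of 0.69 in pericyte-like and -0.64 in fibroblast-like cells, Col5a3 0.61 in pericyte-like and -1.19 in fibroblast-like cells, and Col18a1 0.91 in Schwann-like and -0.90 in endothelial-like cells. The last value rested largely on 1 Sham cell with 15 of the 26 Col18a1 UMIs. Col18a1 was found in 3.57% of Sham and 4.49% of TBI endothelial-like cells, so detection did not fall. The pericyte-like Col4a2 value also rested on few Sham cells. The 3 highest cells held 61.9% of the 21 Sham and 24.2% of the 99 TBI UMIs.

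Barcodes left out for their number of genes or mitochondrial share also carried collagens: 0.318% of their UMIs in the Sham library (724 UMIs in 52 barcodes, 0.295 to 0.342%) and 0.793% in the TBI library (2114 UMIs in 145 barcodes, 0.76 to 0.827%). Both are above the 0.104% and 0.315% of the filtered cells of the same library.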

How the results depend on the processing

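Of the main results under an alternative, 99 values moved by less than their counting interval (counts by less than 1.5 times) and 28 by more. Single genes were followed in their leading class only, where 188 values moved by less, 15 by more and 1 turned. A turn was counted only where the main ratio was past 1.5-fold, so a change of sign in a smaller ratio was not counted as one. Without predicted doublets the 3.03-fold difference over all cells was 1.73 on the log2 scale, collagens were 1.48% and 1.69% of UMIs in Sham and TBI fibroblast-like cells, with a log2 ratio of 0.19, and those cells held 64.6% and 84.4% of collagen UMIs. At resolution 1.6 the percent was 1.47 and 1.59. Without cells under 1000 UMIs fibroblast-like cells held 69.3% and 84.8% of collagen UMIs. As a mean over cells the percent was 1.37 and 1.71, the log2 ratio 0.32, 2 collagens were past 1.5-fold higher and 3 lower, and Col6a3 turned to 0.30. Past 2-fold, 0 were higher and 1 lower. The share of all genes past the fold was not counted under either setting. With the highest fibroblast gene as background, 3 collagens were above it in pericyte-like and 5 in Schwann-like cells.

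Chosen after seeing the data, leaving out the macrophage-led subcluster gave 1.66% in the TBI library. The cluster led by Ptgds, Fmod and Mfap4 alone gave 1.64% and 1.70%, a log2 ratio of 0.053 and 0 collagens past 1.5-fold higher. Without the Sham fibroblast-like cell with the most Postn UMIs the percent in the Sham library was 1.47 and the log2 ratio 0.16. Subtracting the collagen UMIs per lymphocyte-like cell gave 1.62% in the TBI library. Without the 2.5% of cells with the most UMIs of a gene 2 were past it higher; this exclusion was first tried as a fixed number of cells per library, an unequal share of 120 and 758 cells, and the subtraction first on whole profiles, and both were redefined after their values were seen. The share of all genes past 1.5-fold was not counted for the single cluster or without the top 2.5% of cells. The cause of these changes was not tested. No paired analysis was possible because each group has 1 library, so the groups share a single replicate number. With 1 library per group no replicate could be left out.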
